A study of Homo sapiens with 27 samples.

Results

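Thin bipyramids were compared with spheres, both forms of calcium oxalate dihydrate, in MCF10DCIS.com cells by RNA-seq. The comparison used the 4 libraries titled TN A to D and the 4 titled SPH A to D, 8 of the 27 libraries of the series, taken by title and treatment label. MCF10DCIS.com, an established human breast line derived from MCF10A, forms lesions like ductal carcinoma in situ in mice, and its labelled cell type is premalignant breast. Every flask received 500000 cells and was kept for 6 h, and TN and SPH crystals were then each given at 0.1 mg/mL, a matched dose. The other libraries are 7 untreated controls and 4 each with monohydrate crystals (COM), dumbbells (DB) and thick bipyramids (TK). How long cells were kept with crystals before collection is not stated in the labels. Whether the 4 libraries of a group were separate cultures is not stated either. The p-values therefore measure only how these samples spread, and that spread may be technical.

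Calcium oxalate occurs in breast microcalcifications, and crystals that touch or enter a cell can stress its membranes and organelles. Epithelial cells under such stress can switch on the transcription factor NF-kB, which drives chemokines that attract leukocytes and the prostaglandin enzyme PTGS2. They can also switch on ATF4, the factor of the integrated stress response, which raises genes for amino acid import and synthesis.

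The libraries fall into 3 sets by the serial numbers in their deposited names, which are 1 to 10, 11 to 22 and 23 to 27. Both groups have A and B in set 1, C in set 2 and D in set 3, and the set was a term in the model. TN C had a mean fragment length of 297.0 nt, longer than any other library of set 2. By fragment length its place in set 2 is uncertain. PECAM1, picked after its values were seen, was at 3.48 CPM (counts scaled to the plain library total) in TN C. It was at 1.89 to 3.53 in the other libraries of set 2 and at 7.66 to 14.3 in sets 1 and 3. In this gene TN C was therefore like set 2. Total counts were 13115649 to 25356065 for SPH and 13707174 to 38672448 for TN, and in each letter the TN library held more. The part of depth in the results was not tested. No 2 libraries of either group agreed within sampling noise (chi-square per degree of freedom 15.451 to 68.734), so each counted as 1 sample. The 8 breast epithelium markers summed to 8170 to 8650 CPM of the plain library total in SPH and 8250 to 9020 in TN, with all 8 detected in every library. TN B stood apart. Its 16 liver markers summed to 1540 on that scale, against 83.2 to 175 in the other TN, the SPH and the control libraries. It held ALB at 653, SERPINA1 at 270, TF at 232 and AHSG at 137, where the highest values in the 26 other libraries were 8.74, 191, 9.52 and 2.29. The liver enzyme genes CYP3A4 and CYP2E1 were not raised in TN B, at 0.0517 and 0.491 against at most 0.0749 and 0.762 elsewhere. LYZ, a leukocyte marker, was at 58.1 in TN B and at most 2.11 elsewhere. The TN against SPH results were therefore repeated without TN B. The comparisons with controls were not repeated and include TN B. In bulk RNA, fewer cells of a type and less RNA per cell cannot be told apart.

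Cells given thin bipyramids had more mRNA of 6 chemokine genes, of PTGS2 and of 9 of 29 ATF4 and CHOP targets than cells given spheres, and less of a group that includes FGFR1, CAMK2B and the immediate early factors FOS and EGR3. Of 16173 genes tested, 116 rose (0.717%) and 90 fell (0.556%) in TN relative to SPH, or 206 in all (1.27%), at a Benjamini-Hochberg adjusted p under 0.05 in edgeR's quasi-likelihood test. With upper-quartile in place of TMM scaling, 91 rose and 110 fell. Most differences were modest. The median among genes that rose was log2 0.42 and among those that fell log2 -0.53, and 10 and 7 of them differed at least 2-fold. Levels are given below as CPM on the TMM-scaled library total, differences as log2 TN minus SPH with their standard error (SE) from the fit, and positions as GENCODE 29 on GRCh38.

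All 4 same-letter comparisons of a TN with an SPH library had the same direction for 105 of the 116 genes that rose and 83 of the 90 that fell, against 15.4% of all genes tested. The 4 TN libraries did not overlap the 4 SPH libraries in CPM for 46 and 37 of them, against 3.1% of all genes tested. These shares come from the values that made the calls and are a description. Without TN B, 158 genes were called (0.977%), 82 higher (0.507%) and 76 lower (0.47%). Of the 116 and the 90, 60 and 45 were still called then, and all kept their direction. The number called depended on the model and on single libraries. It was 11 with no set term (0.068%; 4 higher, 0.0247%, and 7 lower, 0.0433%) and 3 from the 8 libraries alone, 17 without TN A, 46, 60 and 87 without SPH C, A and B, and 432 without TN D. Without TN C it was 812 (5.02%), with 390 higher (2.41%) and 422 lower (2.61%). With TN C placed in set 1 it was 561. Of 35 called genes that the naming rule picked, 5 were still called with no set term (CCL2, PTGS2, CXCL1, EGR3 and FAIM2), 2 from the 8 libraries alone, 9 without TN A, 16, 18 and 20 without SPH C, A and B, and 26 without TN B.

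**Figure D1:**
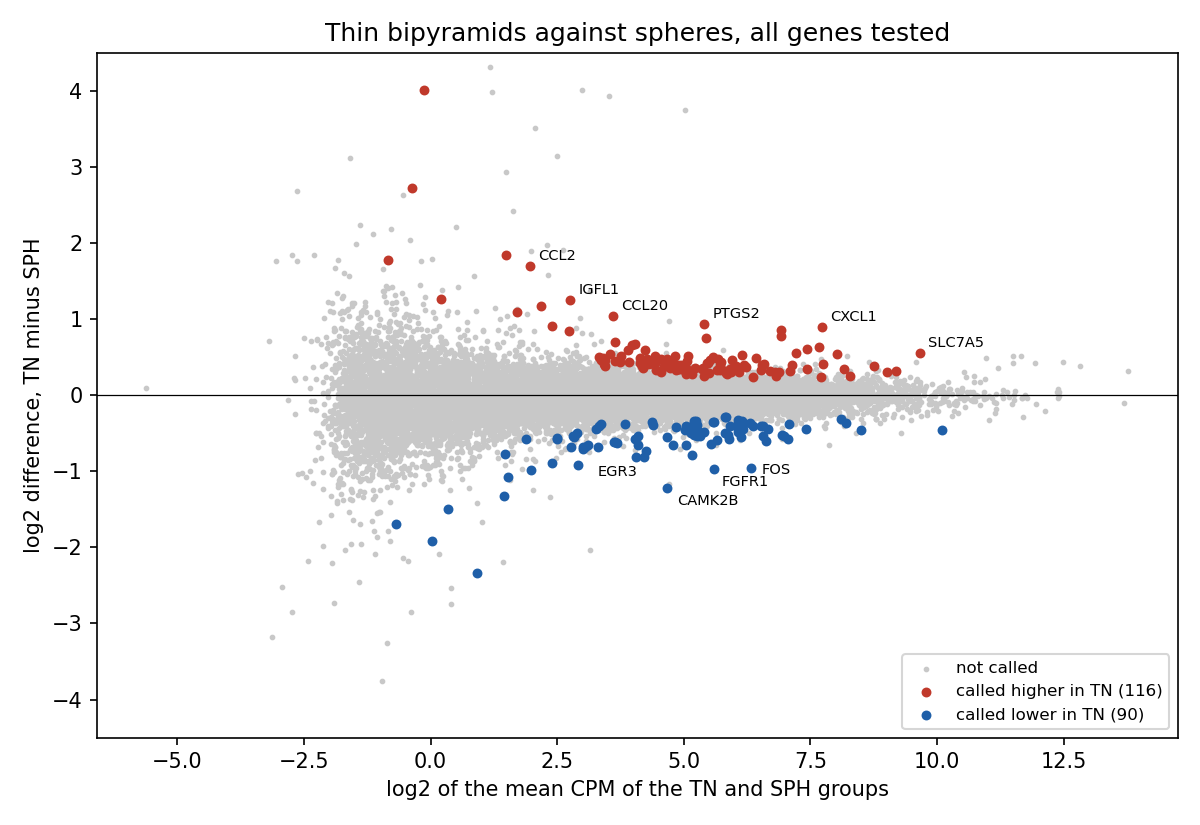
Log2 difference TN minus SPH (vertical axis) against the log2 of the mean CPM of both groups (horizontal axis) for the genes tested, 1 point a gene; 26 genes lie outside the vertical range. Red points are the 116 genes higher in TN and blue points the 90 lower, most of them within 1 log2 unit of 0, with CCL2 the highest labelled point at 1.70 and CAMK2B the lowest at -1.22.

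Against the 7 untreated controls, the same fit called 1896 genes (11.7%) for TN and 18 (0.111%) for SPH. Both of these contrasts use the same controls and are given side by side only. TN B was kept in this fit, and 7 of the 9 liver markers tested were called higher in TN than in controls. The 116 genes that rose had a median of log2 0.44 for TN minus control and 0.03 for SPH minus control, and the 90 that fell had -0.51 and -0.01. Of the 90 that fell, 4 (EGR3, OVOL1, SEMA7A and NET1) were called higher in SPH than in controls, and their TN minus control values were 0.16, 0.01, -0.07 and 0.00. SEMA7A and NET1 were picked after their values were seen.

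Promoter sequences are shown first for the chemokine genes CXCL1, CXCL2, CXCL3 and CCL20, which rose in TN, because each holds a match to an NF-kB motif. Each line is the 250 bases before the RefSeq transcript start (GRCh38.p14), 5′ to 3′ on the gene's strand, with the match in capitals.
CXCL1 (chr4:73869143-73869392, plus strand): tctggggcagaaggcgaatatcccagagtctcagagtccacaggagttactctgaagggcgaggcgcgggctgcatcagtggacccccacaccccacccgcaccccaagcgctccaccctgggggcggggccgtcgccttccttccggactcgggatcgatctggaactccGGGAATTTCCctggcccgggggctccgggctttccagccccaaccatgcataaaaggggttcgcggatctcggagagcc
CXCL2 (chr4:74099196-74099445, minus strand): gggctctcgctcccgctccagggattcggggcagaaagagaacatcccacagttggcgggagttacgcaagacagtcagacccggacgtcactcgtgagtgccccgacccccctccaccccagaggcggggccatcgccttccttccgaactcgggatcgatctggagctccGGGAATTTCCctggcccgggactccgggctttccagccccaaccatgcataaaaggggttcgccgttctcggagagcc
CXCL3 (chr4:74038690-74038939, minus strand): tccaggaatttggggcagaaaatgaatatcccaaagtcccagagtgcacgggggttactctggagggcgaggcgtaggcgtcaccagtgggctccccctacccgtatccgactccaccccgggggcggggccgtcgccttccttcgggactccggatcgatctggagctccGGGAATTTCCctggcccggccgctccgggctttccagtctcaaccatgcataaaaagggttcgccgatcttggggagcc
CCL20 (chr2:227813592-227813841, plus strand): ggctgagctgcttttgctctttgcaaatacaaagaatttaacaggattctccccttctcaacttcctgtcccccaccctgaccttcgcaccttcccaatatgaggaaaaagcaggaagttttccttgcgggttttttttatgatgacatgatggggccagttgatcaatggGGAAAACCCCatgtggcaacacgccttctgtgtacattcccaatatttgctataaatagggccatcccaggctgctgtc
The motif searched, on both strands, was GGG, any 2 bases, then TTTCC. It begins 79 bases before the start in CXCL1, CXCL3 and CCL20 and 78 in CXCL2, and in CCL20 it lies on the opposite strand. It occurs in 1.73% of all 27305 promoters of this length, in 1.96% of those of genes tested, in 6 of the 96 promoters found for genes that rose (6.25%) and in 0 of the 66 found for genes that fell. CXCL1, CXCL2 and CXCL3 count separately among the 6, but their windows are alike around the match, so these matches are not independent. The windows of CXCL8 and PTGS2 hold no match to these letters. Other motifs were searched the same way. AP-1 (TGANTCA) was in 6 of the 96 (6.25%), 1 of the 66 (1.52%), 4.29% of genes tested and 6.6% of all promoters. The ATF4 motif CARE (TGATGNAA) was in 0 of the 96, 1 of the 66 (1.52%), 1.51% of genes tested and 3.19% of all promoters, with no match in the 8 called ATF4 targets that had a promoter entry. The heat shock element (GAANNTTC) was in 4 of the 96 (4.17%), 5 of the 66 (7.58%), 4.29% of genes tested and 5.85% of all promoters. A match describes the sequence only.

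Among 23 NF-kB targets and inflammatory cytokines tested, 7 rose in TN relative to SPH and none fell, where 0.717% of all genes tested rose. The list median was log2 0.32 where the median of all genes tested was 0.00. The 7 were the chemokine genes CCL2, CCL20, CXCL1, CXCL2, CXCL3 and CXCL8, and PTGS2. The count was also 7 without TN B and 3 with no set term, where 0.507% and 0.0247% of all genes tested rose.

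CCL2, a chemokine that attracts monocytes (chromosome 17, 34255218 to 34257203), had the lowest adjusted p of all genes tested. It was at 1.78, 2.0, 2.13 and 1.38 CPM in SPH A to D and at 8.4, 6.11, 4.94 and 4.34 CPM in TN A to D. Every TN library was above every SPH library, and the SPH libraries lay among or below the controls (1.78 to 3.04 CPM). The difference was log2 1.70 (SE 0.19, 3.25-fold, adjusted p = 3.2e-05). It was 1.94, 1.21 and 1.65 within sets 1, 2 and 3. Against controls TN differed by 1.40 (adjusted p = 5.5e-06) and SPH by -0.30 (adjusted p = 0.87).

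CCL20, which attracts dendritic cells and lymphocytes through CCR6 (chromosome 2, 227805739 to 227817564), was at 10.5, 6.67, 6.76 and 7.34 CPM in SPH and at 20.5, 20.6, 11.5 and 12.4 CPM in TN. All TN values were above all SPH values, and TN A and B were the highest. The rise was log2 1.04 (SE 0.17, adjusted p = 0.0029), with adjusted p = 0.055 with no set term. CXCL1, a neutrophil attractant that binds CXCR2 (chromosome 4, 73869393 to 73871242), was at 154, 147, 147 and 139 CPM in SPH and at 432, 276, 215 and 186 CPM in TN. The SPH libraries were close together and within or just above the control range (126 to 145 CPM), and every TN library exceeded them, TN A by the most. The rise was 0.90 (SE 0.13, adjusted p = 0.0013). By set the values were 1.24, 0.55 and 0.42, and the set 1 value less that of the other sets did not pass (0.75, SE 0.19, adjusted p = 0.11).

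CXCL2 and CXCL3 encode near copies of CXCL1, so the split of reads between these genes is uncertain. CXCL2 (chromosome 4, 74097035 to 74099293) was at 3.97, 3.19, 3.95 and 3.44 CPM in SPH and at 9.68, 7.44, 5.14 and 5.22 CPM in TN, a rise of log2 0.91 (SE 0.21, adjusted p = 0.028, or 0.14 with no set term). CXCL3 was at 2.03, 1.66, 2.29 and 2.22 CPM in SPH and at 7.32, 4.70, 2.51 and 3.24 CPM in TN, a rise of 1.10 (SE 0.25, adjusted p = 0.025). In both genes the TN values were all above the SPH values, with TN A highest. CXCL8, interleukin-8, a further neutrophil attractant (chromosome 4, 73740506 to 73743716), was at 205, 170, 120 and 143 CPM in SPH and at 354, 235, 230 and 176 CPM in TN. The groups overlapped, since TN D was below SPH A. The rise was 0.64 (SE 0.12, adjusted p = 0.011, or 0.20 with no set term).

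PTGS2, the inducible cyclooxygenase that starts prostaglandin synthesis (chromosome 1, 186671791 to 186680427), was at 28.5, 33.4, 33.8 and 19.9 CPM in SPH and at 65.2, 53.6, 62.2 and 40.5 CPM in TN. The groups did not overlap, and the D library was the lowest of each. The difference was log2 0.94 (SE 0.15, adjusted p = 0.0035). It was 0.94, 0.88 and 1.03 within the sets, and PTGS2 was called in the 8 libraries alone too (adjusted p = 0.019). Against controls it was 1.58 in TN (adjusted p = 5.2e-08) and 0.64 in SPH (adjusted p = 0.089).

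**Figure D2:**
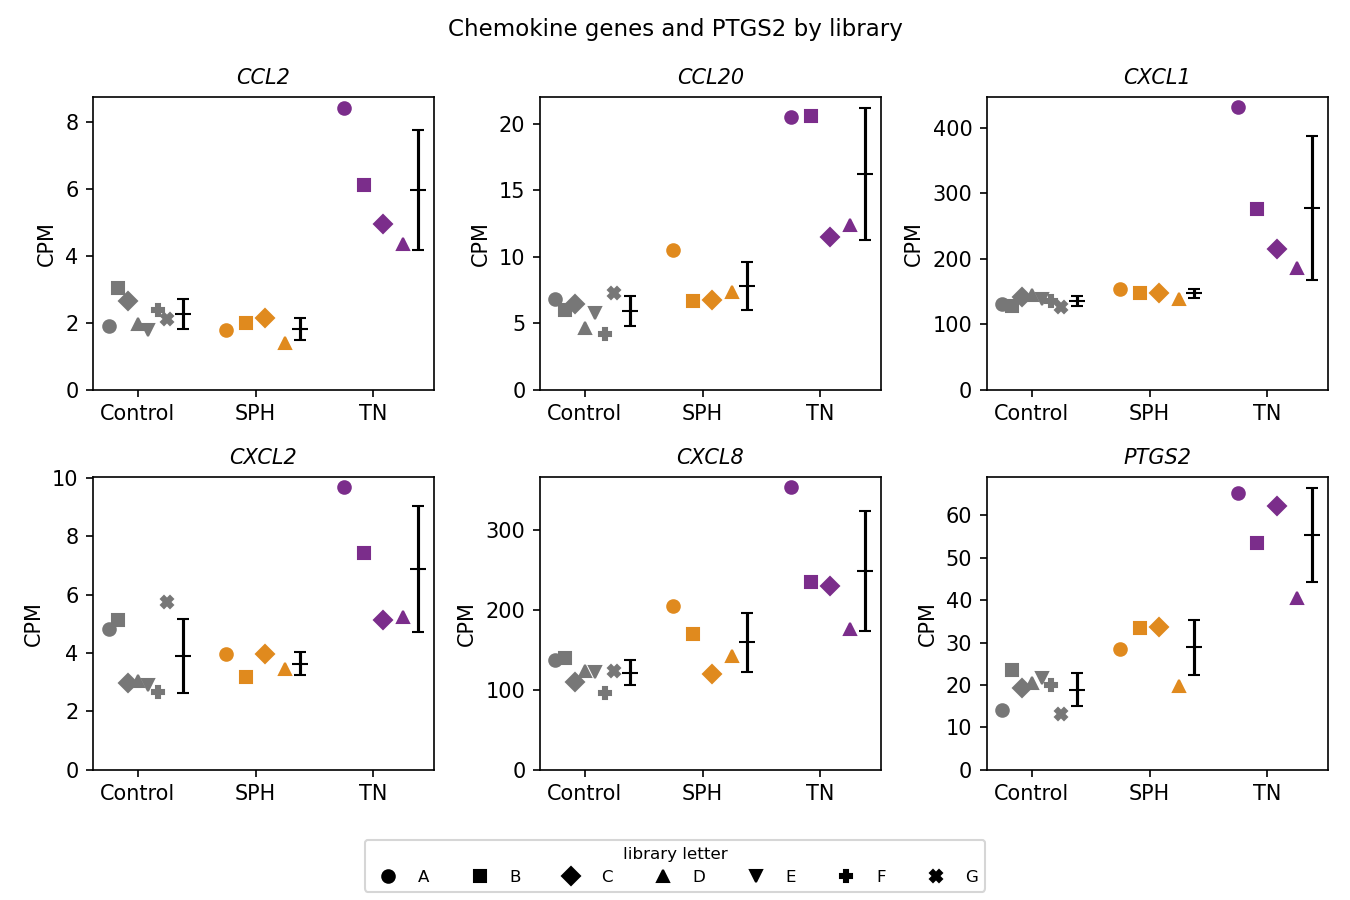
CPM (vertical axes, from 0) of 5 chemokine genes and PTGS2 in the 7 control, 4 SPH and 4 TN libraries, with a marker shape for each library letter; bars are the mean ± SD of a group. In CCL2, CCL20, CXCL1, CXCL2 and PTGS2 every TN point is above every SPH point, and in CXCL8 TN D (176 CPM) is below SPH A (205 CPM).

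The other 16 members of the list did not pass the test. IL1B, the cytokine interleukin-1 beta, was at 226, 182, 95.1 and 169 CPM in SPH and at 211, 204, 118 and 234 CPM in TN, and the groups overlapped. Its difference was log2 0.21 (SE 0.15, 95% interval -0.09 to 0.51, adjusted p = 0.54). The NF-kB subunit and inhibitor genes NFKB1, NFKB2, RELB and NFKBIA had differences of 0.19, 0.13, 0.11 and 0.04. IL1A and BIRC3, an inhibitor of cell death, had 0.32 and 0.33 (adjusted p = 0.14 and 0.13). LIF and NFKBIZ were the members with negative values, each at -0.13. In the inflammasome and pyroptosis list none of 8 members was called (median -0.06).

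SOD2, a mitochondrial superoxide dismutase, and SAA2, an acute phase protein with near copies, were outside the list and were picked after their values were seen. SOD2 was at 126, 117, 141 and 102 CPM in SPH and at 197, 164, 190 and 161 CPM in TN, with no overlap, and rose by log2 0.56 (SE 0.09, adjusted p = 0.0029). SAA2 was at 2.56, 1.61, 3.28 and 3.67 CPM in SPH and at 7.63, 6.42, 3.43 and 7.72 CPM in TN, and rose by 1.17 (SE 0.22, adjusted p = 0.008). TN C, at 3.43 CPM, was within the SPH range.

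Of 29 ATF4 and CHOP targets, 9 rose in TN relative to SPH, none fell and 20 were not called. Their median was log2 0.32, and 0.717% of all genes tested rose. The 9 were SLC7A11, SESN2, SLC7A5, MTHFD2, STC2, JDP2, PSAT1, PCK2 and ATF5. Members stood above 0 in 27 of 29 cases within set 1 (median 0.53) and in 27 within set 3 (median 0.29), but in 12 within set 2 (median -0.06). Of all 16173 genes tested, 8189, 8024 and 8050 stood above 0 within sets 1, 2 and 3. For the ATF4 and CHOP targets, results varied with the libraries and the model. The number called was 4 without TN B, 12 without TN C and 0 with no set term. In those fits 0.507%, 2.41% and 0.0247% of all genes tested rose.

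SLC7A11, the cystine importer that feeds glutathione synthesis (chromosome 4, 138164097 to 138242349), was at 70.2, 85.8, 131 and 71.9 CPM in SPH and at 177, 142, 173 and 117 CPM in TN. SPH C lay above TN D, and the other SPH libraries were below all of TN. The rise was log2 0.78 (SE 0.14, adjusted p = 0.008), and 1.03, 0.40 and 0.70 within the sets. SESN2, a leucine sensor that restrains mTORC1 (chromosome 1, 28259527 to 28282491), was at 26.9, 22.8, 56.8 and 27.8 CPM in SPH and at 58.7, 49.2, 61.1 and 43.2 CPM in TN. Here too SPH C was among the TN values, and the difference within set 2 was 0.11 against 1.12 and 0.63 in sets 1 and 3. The rise over all libraries was 0.75 (SE 0.16, adjusted p = 0.021).

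SLC7A5, the large neutral amino acid transporter (chromosome 16, 87830023 to 87869488), was at 513, 635, 948 and 588 CPM in SPH and at 1050, 861, 1010 and 899 CPM in TN, a rise of log2 0.55 (SE 0.11, adjusted p = 0.012). MTHFD2, an enzyme of mitochondrial folate metabolism (chromosome 2, 74198562 to 74217565), was at 323, 339, 493 and 342 CPM in SPH and at 518, 443, 593 and 384 CPM in TN, a rise of 0.38 (SE 0.07, adjusted p = 0.012). SPH C was the highest SPH library in both genes and overlapped TN. PSAT1, of serine synthesis, rose by 0.54 (SE 0.13, adjusted p = 0.033). PCK2, the mitochondrial PEP carboxykinase, rose by 0.46 (SE 0.12, adjusted p = 0.046). STC2, a secreted glycoprotein, was at 58.3, 54.7, 181 and 85.6 CPM in SPH and at 167, 134, 140 and 145 CPM in TN, and rose by 0.86 (SE 0.21, adjusted p = 0.041). SPH C was the highest of all 8 libraries for STC2. JDP2 and ATF5, both bZIP transcription factors, rose by 0.70 (SE 0.17) and 0.36 (SE 0.09).

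Of the members that did not pass, CHAC1, a glutathione-degrading enzyme, had the largest difference. It was at 17.1, 13.3, 24.2 and 17.5 CPM in SPH and at 43.2, 29.3, 40.3 and 24.9 CPM in TN, without overlap. Its difference was log2 0.98 (SE 0.31, 95% interval 0.34 to 1.63, unadjusted p = 0.0042, adjusted p = 0.11), and it was called without TN C (1.17, adjusted p = 0.037). The controls ranged from 2.88 CPM to 20.5 CPM, the lowest in sets 1 and 3. DDIT3, which encodes CHOP, was at 8.44, 6.29, 24.8 and 8.03 CPM in SPH and at 10.9, 12.9, 21.3 and 8.68 CPM in TN, a difference of 0.32 (SE 0.20, adjusted p = 0.46). Endoplasmic reticulum chaperones, the targets of the other arms of the unfolded protein response, had no member called of 18 (median -0.04).

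**Figure D3:**
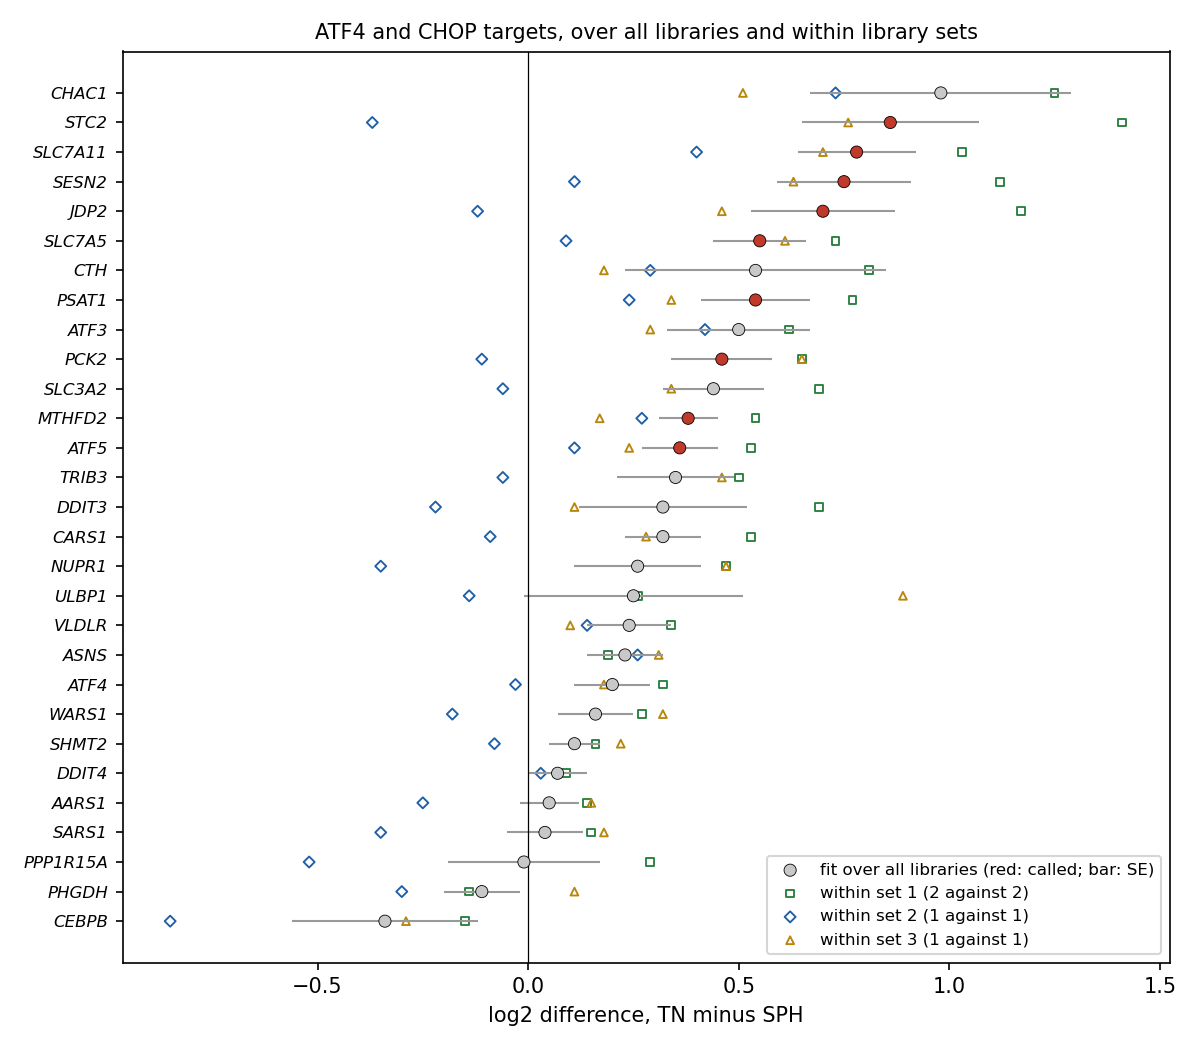
Log2 difference TN minus SPH (horizontal axis) of the 29 ATF4 and CHOP targets; circles with SE bars are the fit over all libraries, red where called, and open symbols are the values within each library set. Squares (set 1) and triangles (set 3) lie right of 0 for 27 genes each, and diamonds (set 2) for 12.

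NRF2 targets, which defend against oxidants, had SLC7A11 as their only called member of 21 (median log2 0.15), where 0.717% of all genes tested rose. HMOX1, haem oxygenase, was at 2.27, 2.63, 2.81 and 2.90 CPM in SPH and at 4.06, 5.06, 3.28 and 2.72 CPM in TN, with a difference of 0.53 (SE 0.21, adjusted p = 0.2). TN D was within the SPH range. FTL, the ferritin light chain, had 0.48 (SE 0.13, adjusted p = 0.06).

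Among other genes that rose, IGFL1, a secreted insulin growth factor-like protein (chromosome 19, 46229752 to 46231243), was at 5.38, 3.14, 4.99 and 2.52 CPM in SPH and at 11.7, 11.7, 9.33 and 5.15 CPM in TN. TN D overlapped SPH A, and the other TN libraries stood clear. The rise was log2 1.25 (SE 0.24, adjusted p = 0.0085). ABCC2, an export pump for conjugated compounds (chromosome 10, 99782640 to 99852594), was at 7.36, 10, 20.4 and 11.1 CPM in SPH and at 14.2, 17.8, 33.5 and 11.5 CPM in TN. The C library was the highest of each group. It rose by 0.66 (SE 0.13, adjusted p = 0.0098), and its difference in set 3 was 0.05.

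LCN2, the iron-siderophore binding protein lipocalin-2 (chromosome 9, 128149071 to 128153455), was at 185, 145, 45.5 and 162 CPM in SPH and at 265, 263, 63.5 and 245 CPM in TN. The C libraries were the lowest of each group, so the groups overlapped. Within the sets TN was higher by log2 0.68, 0.48 and 0.60. The rise was 0.61 (SE 0.11, adjusted p = 0.0054), and the adjusted p was 0.78 with no set term. With TN C placed in set 1 the value was 0.29 (adjusted p = 0.56). The other libraries of set 2 had LCN2 at 35.3 to 70.8 CPM and those of sets 1 and 3 at 145 to 277 CPM. TN C, at 63.5 CPM, was within the set 2 range. EPGN, an EGF receptor ligand (chromosome 4, 74308473 to 74315307), rose by 0.51 (SE 0.11, adjusted p = 0.02). It was at 20.2, 20.4, 32.7 and 20.1 CPM in SPH and at 34.7, 25.5, 42.2 and 29.4 CPM in TN. SQSTM1, the autophagy receptor p62 (chromosome 5, 179806398 to 179838078), was at 480, 449, 428 and 483 CPM in SPH and at 590, 561, 554 and 572 CPM in TN. All TN values were higher and close together. The rise was 0.31 (SE 0.08, adjusted p = 0.048, or 0.069 without TN B). AJUBA, a LIM protein of the Hippo pathway (chromosome 14, 22971174 to 22982642), rose by 0.40 (SE 0.09, adjusted p = 0.026), with 0.68, 0.21 and -0.01 within the sets.

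DNA replication and G1/S genes had 2 members that rose of 24, where 0.717% of all genes tested rose. Of the 24, 23 had positive values (median log2 0.21). Positive values numbered 23, 21 and 9 within sets 1, 2 and 3 (medians 0.33, 0.21 and -0.02), and none was called with no set term. RRM2, a subunit of ribonucleotide reductase (chromosome 2, 10120698 to 10131419), was at 178, 211, 167 and 178 CPM in SPH and at 322, 244, 223 and 194 CPM in TN, a rise of 0.41 (SE 0.09, adjusted p = 0.029). TN D lay below SPH B. CDC45, of the replicative helicase (chromosome 22, 19479459 to 19520612), was at 25.1, 26.4, 29.6 and 26.4 CPM in SPH and at 40.2, 33.6, 32.6 and 29.6 CPM in TN. It rose by 0.35 (SE 0.09, adjusted p = 0.046, or 0.081 without TN B). No member of the 24 cell division genes was called (median 0.14, 22 positive), and 19, 23 and 9 were positive within the sets (medians 0.14, 0.31 and -0.07). MKI67, which encodes Ki-67, was at 206, 336, 336 and 331 CPM in SPH and at 312, 216, 332 and 343 CPM in TN. Its difference was -0.01 (SE 0.14, 95% interval -0.29 to 0.27), with a sign that changed with the settings.

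All 13 mitochondrially encoded transcripts had positive values (log2 0.24 to 0.51, median 0.38), and none was called. Of all 16173 genes tested, 8227 had positive values. An unadjusted p under 0.05 was found for 9 of the 13, and for 0 with no set term. Among all genes tested, 1379 and 859 were higher in TN at that level in these fits. MT-CO1, a subunit of complex IV, was at 16600, 13900, 8390 and 12000 CPM in SPH and at 16100, 18400, 13500 and 13800 CPM in TN, a difference of 0.32 (SE 0.13, adjusted p = 0.21). SPH C was lowest and TN B highest. The nuclear oxidative phosphorylation subunits and the cytosolic ribosomal proteins had medians of 0.00 with none called of 27 and 26.

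Among genes that fell, CAMK2B, a calcium and calmodulin dependent kinase (chromosome 7, 44217150 to 44334577), had the largest difference of those named. It was at 40.2, 23.3, 49.0 and 29 CPM in SPH and at 8.46, 14.1, 22.4 and 16.9 CPM in TN. Every TN library was below every SPH library, by the least between TN C and SPH B. The fall was by log2 1.22 (SE 0.18, 2.34-fold, adjusted p = 0.0013). Within the sets it was -1.49, -1.13 and -0.78. TN minus control was -1.0 (adjusted p = 0.00041) and SPH minus control 0.22 (adjusted p = 0.92).

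FGFR1, a receptor for fibroblast growth factors (chromosome 8, 38400215 to 38468834), was at 52.2, 45.4, 106 and 49.8 CPM in SPH and at 17.3, 26.1, 50.9 and 36.1 CPM in TN. The C library was the highest of each group, and TN C overlapped the lower SPH libraries. The fall was by log2 0.97 (SE 0.14, adjusted p = 0.00066, or 0.21 with no set term), with -1.17, -1.06 and -0.46 within the sets. LRIG1, a membrane protein that restrains EGF receptor signalling (chromosome 3, 66378797 to 66501263), was at 90.1, 96.5, 153 and 88.8 CPM in SPH and at 57.6, 64.2, 129 and 78.4 CPM in TN. It fell by 0.41 (SE 0.08, adjusted p = 0.016), but with TN C placed in set 1 the value was -0.19 (adjusted p = 0.53). Together with EPGN it made up the 2 called members of 12 in the EGF receptor family list (median -0.07). Over all genes tested, 0.717% rose and 0.556% fell.

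Immediate early and ERK target genes, which answer growth factor signals within minutes, had 2 members of 31 that fell and none that rose (median log2 -0.14). Of all genes tested, 0.556% fell. FOS, a subunit of the AP-1 factor (chromosome 14, 75278774 to 75282230), was at 115, 85.7, 84.1 and 131 CPM in SPH and at 80.1, 65.3, 27.8 and 55.0 CPM in TN. The groups did not overlap, though TN A and SPH C were close. It fell by 0.95 (SE 0.20, adjusted p = 0.016, or 0.42 with no set term). Within sets 1, 2 and 3 it dropped by 0.47, 1.6 and 1.25. The controls ranged from 51.6 CPM to 179 CPM. FOSB (-1.16, SE 0.33, adjusted p = 0.073), EGR1 (-0.65, SE 0.18, adjusted p = 0.064) and JUN (-0.50, SE 0.17, adjusted p = 0.13) did not pass.

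EGR3, an immediate early zinc finger factor (chromosome 8, 22687659 to 22693302), was at 24.8, 28.9, 21.4 and 19.6 CPM in SPH and at 10.9, 11.8, 16.5 and 14.9 CPM in TN. TN lay within or just above the control range of 9.64 to 14.5 CPM, and every SPH library was above it. The fall from SPH to TN was by log2 0.81 (SE 0.15, adjusted p = 0.0081). SPH minus control was 0.97 (adjusted p = 0.00095) and TN minus control 0.16 (adjusted p = 0.49). OVOL1, an epithelial transcription factor (chromosome 11, 65787022 to 65797219), had the same order. It was at 12, 15.8, 10.9 and 9.78 CPM in SPH, 6.21, 7.15, 9.19 and 7.87 CPM in TN and 5.87 to 9.04 CPM in controls. It fell by 0.68 (SE 0.15, adjusted p = 0.023, or 0.056 without TN B), with SPH minus control at 0.68 (adjusted p = 0.032) and TN minus control at 0.01 (adjusted p = 0.98).

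ZNF750, a regulator of epidermal differentiation, was at 11.7, 11.9, 9.99 and 7.57 CPM in SPH and at 6.29, 5.53, 10.8 and 6.62 CPM in TN. TN C was inside the SPH range and the rest of TN below it. The difference of log2 -0.49 (SE 0.17, adjusted p = 0.14) did not pass, but did without TN C (-0.81, adjusted p = 0.0016). Within the keratinocyte differentiation list, LCN2 and OVOL1 were the 2 called members of 27, in opposite directions (median 0.06). Over all genes tested, 1.27% were called.

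**Figure D4:**
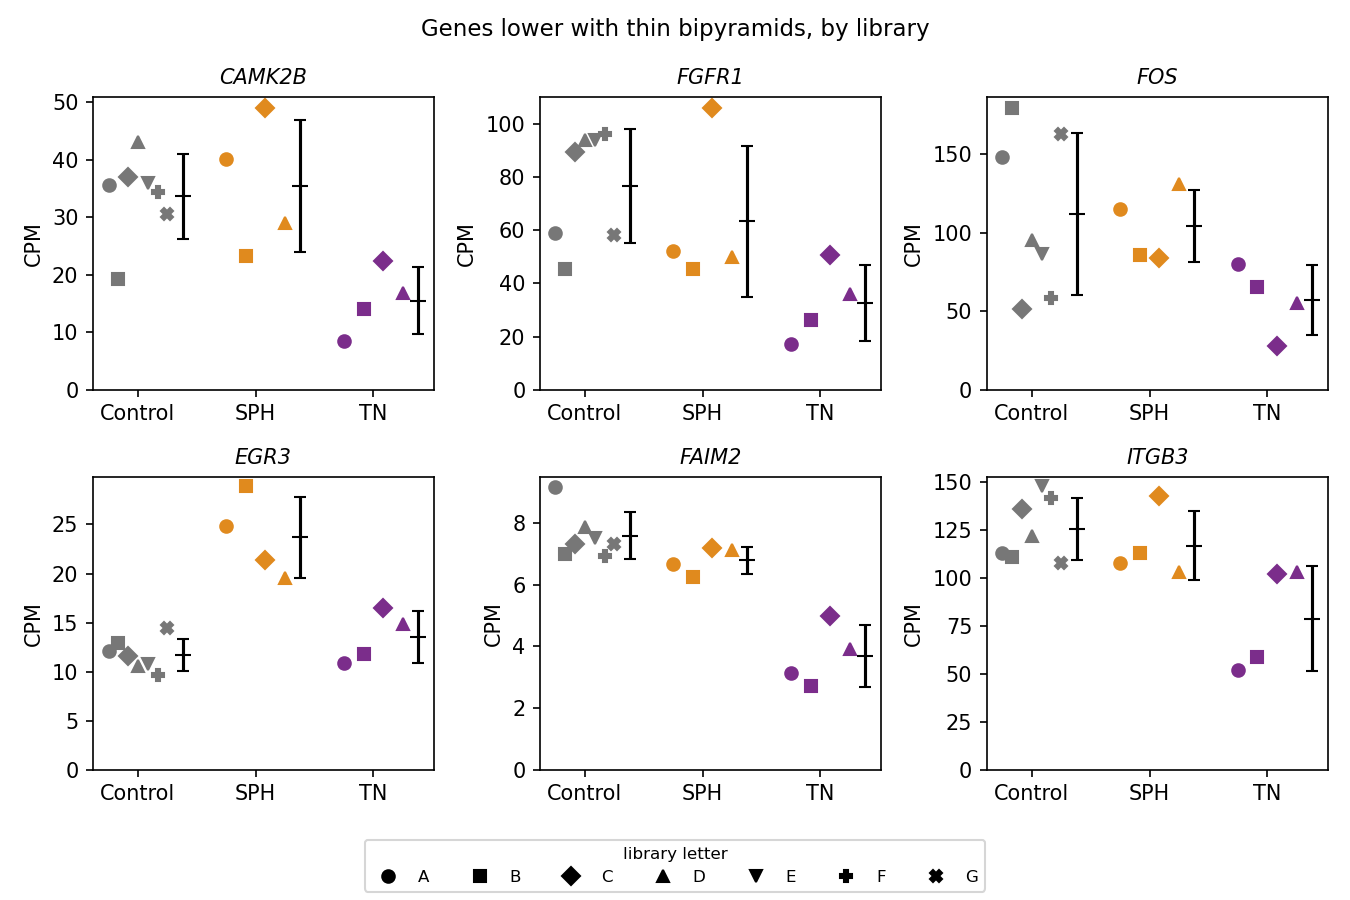
CPM (vertical axes, from 0) of CAMK2B, FGFR1, FOS, EGR3, FAIM2 and ITGB3 in the 7 control, 4 SPH and 4 TN libraries, with a marker shape for each library letter; bars are the mean ± SD of a group. EGR3 is the panel in which SPH (19.6 to 28.9 CPM) stands above the controls (9.64 to 14.5 CPM), and FGFR1 is the panel in which a TN library overlaps SPH.

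ITGB3, the integrin beta-3 subunit of a vitronectin receptor (chromosome 17, 47253846 to 47311816), was at 108, 113, 143 and 103 CPM in SPH and at 51.9, 58.8, 102 and 103 CPM in TN. TN A and B were far below SPH, and TN D was equal to SPH D to 3 digits. The fall was by log2 0.60 (SE 0.14, adjusted p = 0.029, or 0.083 without TN B and 0.052 with TN C placed in set 1). By set the values were -1.0, -0.49 and -0.01, and the set 1 difference less that of the other sets was itself called (-0.75, SE 0.14, adjusted p = 0.042). ITGB3 was the only called member of 17 integrin and adhesion genes (median -0.06), where 0.556% of all genes tested fell. Without TN C, 4 of the 17 fell and none rose, where 2.61% of all genes tested fell.

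FAIM2, an inhibitor of FAS-mediated cell death (chromosome 12, 49866896 to 49904217), was at 6.66, 6.24, 7.18 and 7.11 CPM in SPH and at 3.14, 2.71, 5.00 and 3.90 CPM in TN, without overlap. It fell by log2 0.89 (SE 0.17, adjusted p = 0.011), and stayed called with no set term (adjusted p = 0.038). DHRS9, a retinol dehydrogenase (chromosome 2, 169064789 to 169096167), was at 14.3, 9.98, 4.63 and 11.5 CPM in SPH and at 4.68, 5.72, 3.63 and 5.44 CPM in TN. SPH C was among the TN values. It fell by 0.92 (SE 0.23, adjusted p = 0.046, or 0.11 without TN B). HMCN1, an extracellular matrix protein (chromosome 1, 185734551 to 186190949), was at 19.1, 24.7, 28.4 and 22.2 CPM in SPH and at 12.1, 9.16, 18.1 and 18.9 CPM in TN, and fell by 0.73 (SE 0.18, adjusted p = 0.037, or 0.11 without TN B). CEMIP, a hyaluronan-degrading protein (chromosome 15, 80779343 to 80951776), was at 9.84, 11.5, 6.09 and 12.4 CPM in SPH and at 5.01, 4.91, 4.97 and 9.34 CPM in TN. TN D was the high value of its group and overlapped SPH, and the fall was by 0.71 (SE 0.14, adjusted p = 0.012).

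H19, an imprinted long non-coding RNA (chromosome 11, 1995176 to 2001470), was at 17.7, 15.3, 26.6 and 25.7 CPM in SPH and at 7.74, 12.2, 13.3 and 15.3 CPM in TN. It fell by log2 0.81 (SE 0.20, adjusted p = 0.038). AC015813.2, annotated as protein coding (chromosome 17, 57989038 to 58007246), was at 28.0, 37.4, 53.8 and 62.5 CPM in SPH and at 19.5, 28.6, 19.7 and 35.9 CPM in TN. It fell by 0.78 (SE 0.19, adjusted p = 0.038, or 0.061 without TN C). No strand setting of the counting was given, so reads of overlapping genes on the other strand cannot be told apart at such loci. GBA2, a glucosylceramidase picked after its values were seen, was at 81.1, 76.5, 95.4 and 79.5 CPM in SPH and at 44.3, 56.4, 63.2 and 65.0 CPM in TN, with no overlap, and fell by 0.55 (SE 0.07, adjusted p = 0.00066).

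HSPA1A, an inducible HSP70 chaperone (chromosome 6, 31815464 to 31817946), was the 1 called member of 20 heat shock proteins (median log2 -0.04). Over all genes tested, 0.556% fell. HSPA1A was at 76.1, 68.9, 31.5 and 68.8 CPM in SPH and at 32.5, 41.9, 31.9 and 52.8 CPM in TN. SPH C was the lowest of all 8 libraries, and the other SPH libraries were above TN. The fall was by 0.59 (SE 0.13, adjusted p = 0.024, or 0.051 without TN B), with 0.02 within set 2. The controls ranged from 67.6 CPM to 126 CPM, and relative to them TN fell by 1.41 (adjusted p = 5.2e-08) and SPH fell by 0.82 (adjusted p = 0.0011). HSPA1B, a near-identical copy between which reads are split with uncertainty, had -0.29 (SE 0.09, adjusted p = 0.12).

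HK2, a hexokinase of glycolysis (chromosome 2, 74833981 to 74893359), decreased by log2 0.31 (SE 0.08, adjusted p = 0.037, or 0.096 without TN B), from 261, 303, 322 and 328 CPM in SPH to 210, 211, 262 and 299 CPM in TN. It was the 1 called member of 26 glycolysis and hypoxia genes (median -0.06). Without TN C, 6 of the 26 fell and none rose, where 2.61% of all genes tested fell. LTBP2, a latent TGF-beta binding protein of the matrix (chromosome 14, 74498170 to 74612378), fell by 0.39 (SE 0.10, adjusted p = 0.041, or 0.11 without TN B) and was the 1 called of 19 TGF-beta targets (median -0.12). AJUBA was the 1 called of 14 YAP and TAZ targets (median 0.02), and SQSTM1 the 1 called of 20 lysosome, autophagy and membrane damage genes (median 0.08). Over all genes tested, 0.556% fell, as HK2 and LTBP2 did, and 0.717% rose, as AJUBA and SQSTM1 did.

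Matrix proteases and their inhibitors had no called member of 20, with 16 of 20 values negative (median log2 -0.23). Within set 1, 4 of 20 were positive (median -0.41), and within sets 2 and 3, 11 each (medians 0.03 and 0.04). Without TN C, 6 of the 20 fell, against 2.61% of all genes tested. MMP1, the interstitial collagenase, was at 69.8, 36.9, 14.2 and 35.3 CPM in SPH and at 11.4, 21.5, 16.7 and 35.6 CPM in TN. The groups overlapped, and the difference of -0.71 (SE 0.31, 95% interval -1.34 to -0.07, adjusted p = 0.26) was -1.70, 0.23 and 0.01 within the sets. Without TN C it was called (-1.17, adjusted p = 0.016). PLAT, tissue plasminogen activator, had -0.49 (SE 0.13, adjusted p = 0.057).

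CDH1, the gene of E-cadherin, was at 233, 253, 253 and 244 CPM in SPH and at 209, 196, 230 and 238 CPM in TN, a difference of log2 -0.17 (SE 0.08, 95% interval -0.33 to -0.02, adjusted p = 0.26). VIM, a mesenchymal filament, had -0.05 (95% interval -0.28 to 0.17), and KRT5, a basal keratin, -0.03 (95% interval -0.17 to 0.11). Mesenchymal and matrix genes (0 of 19, median -0.11), epithelial junction genes (0 of 23, median -0.08) and basal and luminal keratins (0 of 10, median -0.01) had no called member. SPP1, osteopontin, was at 0.455, 0.212, 1.14 and 0.229 CPM in SPH and at 1.06, 18.2, 0.228 and 1.03 CPM in TN. TN B, the library with liver transcripts, held the high value, and the difference of 2.93 (SE 0.87, adjusted p = 0.084) was 0.50 without it. In the oxalate transport and mineralization list none of 16 was called (median -0.03).

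None was called among 21 cholesterol synthesis genes (median log2 -0.10), 10 fatty acid synthesis genes (-0.12), 23 p53 targets (0.03), 24 interferon-stimulated genes (0.06), 26 calcium handling genes (-0.04), 15 actin and serum response factor targets (-0.08), 14 endocytosis and phagocytosis receptors (0.06) or 6 chemokine and interleukin-1 receptors and antagonists (0.00). Cholesterol genes had opposite signs between sets, with 2 of 21 positive in set 1, 19 in set 2 and 2 in set 3. Without TN C, 4 of the 21 cholesterol, 3 of the 10 fatty acid and 4 of the 26 calcium handling genes fell. None of these rose, and 2.61% of all genes tested fell in that fit. Among marker lists none was called of 8 for breast epithelium (-0.02), 2 for fibroblasts (-0.01), 3 for leukocytes (0.33), 1 for endothelium (-0.31) and 9 for liver (5.18), and no erythroid marker was tested. Of the liver markers, 7 of the 9 had an unadjusted p under 0.05, higher in TN. Without TN B all 9 were lower in TN (median -0.82), 5 of them with an unadjusted p under 0.05. The leukocyte median was then 0.13, and no member of either list was called.

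**Figure D5:**
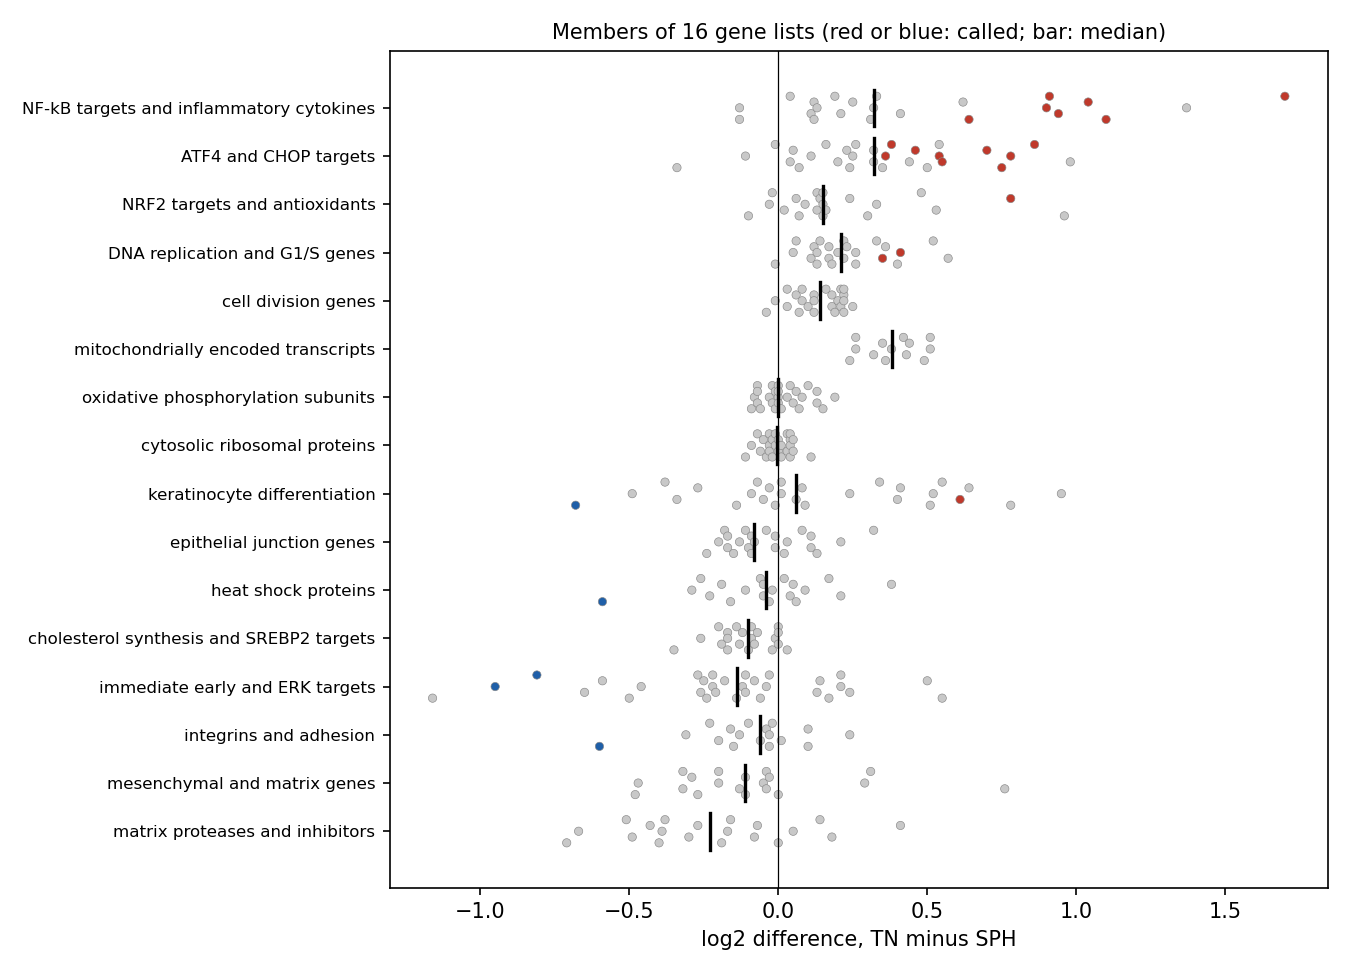
Log2 difference TN minus SPH (horizontal axis) for members of 16 gene lists, 1 point a gene; red points were called higher, blue points lower, grey points not called, and black bars are list medians. Red points gather in the NF-kB list (7) and the ATF4 list (9), and all 13 mitochondrially encoded transcripts lie right of 0 in grey.

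The TN minus SPH difference itself was compared between set 1, which holds 2 libraries of each group, and the mean of sets 2 and 3. Of the genes tested, 33 were called (0.204%), 15 with a higher and 18 with a lower value in set 1. ITGB3 and ZNF750 were the named genes among them, and ZNF750 had -0.99 within set 1, 0.12 within set 2 and -0.19 within set 3 (difference -0.95, SE 0.18, adjusted p = 0.041). The count was 5 without TN B. With TN C placed in set 1 it was 0, but set 1 was then compared with set 3 only, a different contrast.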

How the data were processed

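RNA of 27 libraries was measured by polyA RNA-seq. Reads were processed with Trim Galore, Bowtie2 and RSEM on GRCh38, per the submitters' processing notes (versions, annotation release and strand setting: not given). The authors deposited, for each library, RSEM expected counts per gene, TPM and gene lengths. Expected counts were rounded to whole numbers.

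Genes were kept by filterByExpr over the 6 groups (16173 of 60683). edgeR 4.0.16 (R 4.3.3, limma 3.58.1) fitted all 27 libraries with TMM factors, a mean per group and the library set, so that all groups share the estimate of spread. The quasi-likelihood test was adjusted by Benjamini-Hochberg over all genes tested with a threshold of 0.05. The letters A to D did not pair the libraries. Positions came from GENCODE 29, which held 98.9% of the genes tested. Alternatives were DESeq2 1.42.0, other scaling factors, filters and set terms, and leaving out libraries.

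Libraries were grouped by their labels. The comparison, the 38 gene lists and the rules were chosen with earlier results of these data known. Genes were named if among the 10 largest rises or falls of called genes that had 5 CPM or more on average, the same direction in all 4 same-letter pairs and an unadjusted p under 0.05 without TN B; if among the 3 called members of a list with the smallest p; or if followed in every case (PTGS2, IL1B, CXCL8, HMOX1, HSPA1A, CHAC1, DDIT3, EGR3, ZNF750, MMP1, SPP1, CDH1, VIM, KRT5 and MKI67). The 4 highest liver markers of TN B were named too. Other genes were picked after their values were seen. 1 gene that the rule names is not reported here.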

Additional observations from a re-analysis of the deposited data

Results flagged for a closer look

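Single libraries stood far from the other 3 of their group by Dixon's test in 14 of 104 groups of values. Chance gives about 1 in 20 where the 4 libraries are alike, but C alone of each group lies in set 2. The values were not adjusted for the set. Controls differed by set too, with FGFR1 at 89.4 to 96.3 CPM in set 2 and 45.6 to 59.2 CPM in sets 1 and 3. For LCN2 these ranges were 35.3 to 42.8 CPM and 156 to 201 CPM. The part of the set in these flags was not tested. SPH C was apart for SESN2 (56.8 CPM), FGFR1 (106 CPM), HSPA1A (31.5 CPM), MTHFD2 (493 CPM), LRIG1 (153 CPM), EPGN (32.7 CPM), DDIT3 (24.8 CPM) and the summed endothelial markers (3.41 CPM of the plain library total). SPH A was apart for MKI67 (206 CPM). TN B was apart for SPP1 (18.2 CPM) and, on the plain scale, for the summed leukocyte markers (65.8 CPM) and liver markers (1540 CPM). TN C was apart for LCN2 (63.5 CPM) and TN D for CEMIP (9.34 CPM).

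The TN minus SPH difference itself differed between set 1 and the mean of sets 2 and 3 for ITGB3 (log2 -0.75, edgeR adjusted p = 0.042) and ZNF750 (log2 -0.95, edgeR adjusted p = 0.041).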

How the results depend on the processing

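The number of genes called moved with most settings, given here as all, higher in TN and lower in TN. It was 206, 116 and 90 as reported, 11, 4 and 7 with no set term, 728, 453 and 275 with no filter beyond 1 count, and 516, 278 and 238 with DESeq2. It was 3, 2 and 1 from the 8 libraries alone. With the replicate block in those 8 it was 2, 1 and 1. Same-letter deviations correlated at 0.15, -0.16, 0.01 and 0.26, so the letters were not taken as pairs. Libraries of the same letter do lie in the same library set in both groups. TN C lay outside the set 1 ranges of PECAM1 and LCN2 and within those of set 2. With TN C placed in set 1 the number called was 561, 299 and 262, and without TN C and SPH C 449, 197 and 252. Within set 1 it was 991, 464 and 527, within set 2 81, 59 and 22, and within set 3 0, 0 and 0, where 682 genes had an unadjusted p under 0.05. Sets 2 and 3 hold 1 library a group, assumed to vary like the rest.

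Leaving out single libraries gave 17 to 812 calls, 10 to 390 higher and 7 to 422 lower: 60 without SPH A, 87 without SPH B, 46 without SPH C, 250 without SPH D, 17 without TN A, 158 without TN B, 812 without TN C and 432 without TN D. Upper-quartile factors (91 higher, 110 lower) and at least 1 CPM in 4 libraries (101 and 121) changed the split between directions. Chosen after seeing the data, no set term without TN B gave 3, 2 and 1, and mean fragment length as a covariate gave 417, 199 and 218. The 33 genes whose difference depended on the set became 5 without TN B. With TN C in set 1 the count was 0, from a different contrast of set 1 with set 3 only. The cause of these changes was not tested.

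Of 35 called genes picked by the naming rule, 5 were still called with no set term, 2 from the 8 libraries alone, 1 with the replicate block, 32 with TN C in set 1 and 9 to 33 with a library left out. Of the 35, 2 changed sign, HSPA1A within set 2 (0.02) and AJUBA within set 3 (-0.01). Among those not called, IL1B was -0.05 with TN C in set 1, HMOX1 -0.09 within set 3, and within set 2 DDIT3 was -0.22, ZNF750 0.12 and SPP1 -2.30. MMP1 was 0.23 and 0.01 within sets 2 and 3, and VIM 0.28 and 0.02 there and 0.04 without SPH A. KRT5 was 0.06 with TN C in set 1, 0.05 within set 2, 0.00 without SPH B or TN B (range over libraries left out -0.07 to 0.00), and 0.03 with no set term and without TN B. MKI67 was 0.01 with no filter, 0.00 with the replicate block, 0.04 with TN C in set 1, 0.09, 0.03 and 0.11 without SPH B, SPH D and TN B (range over libraries left out -0.14 to 0.11), 0.05 within set 3 and 0.12 with no set term and without TN B.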
